A study of Mus musculus with 2 samples.

Results

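The interleukin 6 (IL-6) family was followed in single cells of mouse dorsal skin with and without atopic dermatitis (AD)-like inflammation. The 9 family genes taken here, chosen by gene symbol among the 33904 genes of both count matrices, were 4 ligands (Il6, Lif, Osm and Il11) and 5 receptor chains (Il6ra, Il6st, Lifr, Osmr and Il11ra1). All 9 were found in both matrices. A single library per condition was sequenced, 1 for control skin (Ctrl) and 1 for AD skin. Both came from female C57BL/6J mice aged 7 weeks, whose dorsal hair had been removed with cream 24 h earlier. Ctrl skin received 100% ethanol each day on a 2 cm × 2 cm area, and AD skin received 4.5 nmol of MC903 (calcipotriol, a vitamin D analogue) in ethanol, and both were taken on day 10. How many mice gave each library is not stated, and dead cells were removed before loading. With 1 library per condition no test between conditions is possible. Every interval given below is a 95% interval (exact Poisson for levels and their ratios, Clopper-Pearson for shares, and a normal approximation on the log scale for ratios of shares) and covers counting error only.

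Cytokines of this family are small four-helix proteins that share gp130, the signalling chain encoded by Il6st. IL-6 binds its own receptor chain IL-6Rα (Il6ra) and then gp130, IL-11 does so through IL-11Rα (Il11ra1), LIF pairs gp130 with LIFR, and mouse oncostatin M (OSM) pairs it mainly with OSMR. The receptors activate JAK kinases and STAT3, and STAT3 induces its own inhibitor Socs3. In skin, fibroblasts are a known source of IL-6, leukocytes are a known source of OSM, and OSMR also joins IL-31RA in the receptor for the itch cytokine IL-31.

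The ligand genes Lif and Osm are neighbours on mouse chromosome 11, at 11:4257557-4272514 and 11:4236420-4241026 (GENCODE M21, GRCm38, both on the plus strand), with 16.5 kb between them. Il6 lies at 5:30013114-30019981 (plus) and Il11 at 7:4772373-4782859 (minus). Among the receptor genes, Osmr (15:6813577-6874969, minus) and Lifr (15:7090614-7197489, plus) share chromosome 15, Il6st lies at 13:112464070-112510086 (plus), Il6ra at 3:89864059-89913196 (minus) and Il11ra1 at 4:41699989-41769474 (plus).

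The promoters of Il6 and Lif are shown because these were the ligands whose levels differed most between Ctrl and AD fibroblasts among those above 10 CPM (the unit of level defined below). Each is the 250 bases before the start of the gene in RefSeq on GRCm38.p6, read 5′ to 3′ on the plus strand, at chr5:30012864-30013113 for Il6 and chr11:4257318-4257567 for Lif. Capitals mark matches to short motifs searched on both strands.
Il6 promoter: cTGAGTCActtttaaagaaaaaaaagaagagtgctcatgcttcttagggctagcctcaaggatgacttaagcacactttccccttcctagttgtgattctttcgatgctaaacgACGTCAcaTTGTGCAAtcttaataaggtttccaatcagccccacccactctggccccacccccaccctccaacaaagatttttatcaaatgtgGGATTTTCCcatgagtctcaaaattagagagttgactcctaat
Lif promoter: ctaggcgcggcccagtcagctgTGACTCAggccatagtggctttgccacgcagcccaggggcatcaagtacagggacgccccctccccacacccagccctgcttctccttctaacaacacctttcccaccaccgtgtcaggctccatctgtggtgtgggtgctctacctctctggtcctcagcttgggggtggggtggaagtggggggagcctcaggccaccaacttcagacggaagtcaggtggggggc
An AP-1 motif (TGANTCA) was found in both, 249 to 243 bases before the start of Il6 and 228 to 222 bases before that of Lif, and 6.75% of 32851 promoter windows of this length held one. The Il6 window also held a CRE core (ACGTCA, in 6.47% of windows) at 136 to 131, a C/EBP motif (TTNNGNAA, in 36.8%) at 128 to 121 and an NF-kappaB motif (GGANTTTCC, in 1.07%) at 43 to 35 bases before the start. Neither window held TTCNNNGAA, the STAT motif (7.02% of windows), or TATAAA (12.4%), and no matches overlapped. These are letter matches only, and no binding was measured here.

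After cells with fewer than 200 or more than 6000 genes or more than 10% mitochondrial counts were left out, 11399 of 12598 Ctrl and 8179 of 8778 AD barcodes were kept, with medians of 7813 and 6330 unique molecular identifiers (UMIs, each a captured mRNA molecule) per cell. A cell was given a type when at least 3 of 6 markers of that type had a UMI and no other type reached more than 0.5 of that number. This typed 79.0% of Ctrl and 61.8% of AD cells, among them 5364 and 3301 fibroblasts, 1881 and 375 keratinocytes, 540 and 363 T cells, 399 and 176 macrophages, 209 and 268 lymphatic endothelial cells, and 5 and 34 basophils. The 10 leading genes of each class held no majority of markers from any other type. More AD fibroblasts lay at the limit of the gate, 29.5% with exactly 3 markers against 7.7% in Ctrl, and fibroblasts of both libraries lay mostly in different clusters (1, 2, 6 and 9 in Ctrl, and 0, 3, 4 and 12 in AD). Both libraries shared 35 barcodes. The unit of level, CPM, is a gene's UMI sum in a class of cells per 1000000 UMIs in that class, and log2 ratios are AD over Ctrl.

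Il6, the founding ligand of the family, was higher in AD in every class with at least 100 cells in both libraries. Among these, T cells served as the background for Il6, and keratinocytes could not be told from it, as given below. In fibroblasts it went from 10584 UMIs and 206 CPM (202 to 210) in Ctrl to 19977 UMIs and 678 CPM (668 to 687) in AD, a 3.29-fold difference (log2 ratio 1.72, interval 1.68 to 1.75). The share of fibroblasts with an Il6 UMI was 38.7% in Ctrl and 58.7% in AD, and cells with any held 5.10 and 10.3 UMIs on average. Il6 was thus both in more AD fibroblasts and, on average, more abundant in those cells. It was also unevenly spread: the tenth of fibroblasts with most Il6 held 73.3% of its UMIs in Ctrl and 61.7% in AD, with up to 75 and 139 in a cell.

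AD fibroblasts were sequenced less deeply than Ctrl fibroblasts, with medians of 7764 UMIs against 8846 in Ctrl. After each cell was thinned to 1000 UMIs, which left out 25 Ctrl and 8 AD fibroblasts, 12.2% (11.3 to 13.1) of Ctrl and 27.5% (26.0 to 29.0) of AD fibroblasts still held an Il6 UMI. T cells, which served as background for stromal genes, had an Il6 UMI in 3.70% of Ctrl and 11.3% of AD cells at median depths of 3162 and 6109 UMIs, and in 0.93% and 3.58% when thinned. The Il6 shares of fibroblasts were therefore above this background in both libraries. Of 10 immediate early and heat shock genes, a list of tissue handling stress added after the data were seen, none was past 2-fold in fibroblasts in either direction (log2 ratios -0.79 to 0.94, Fos highest), and their summed level was 17912 CPM in Ctrl and 21831 in AD. The part of handling in the Il6 difference was not tested.

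**Figure D1:**
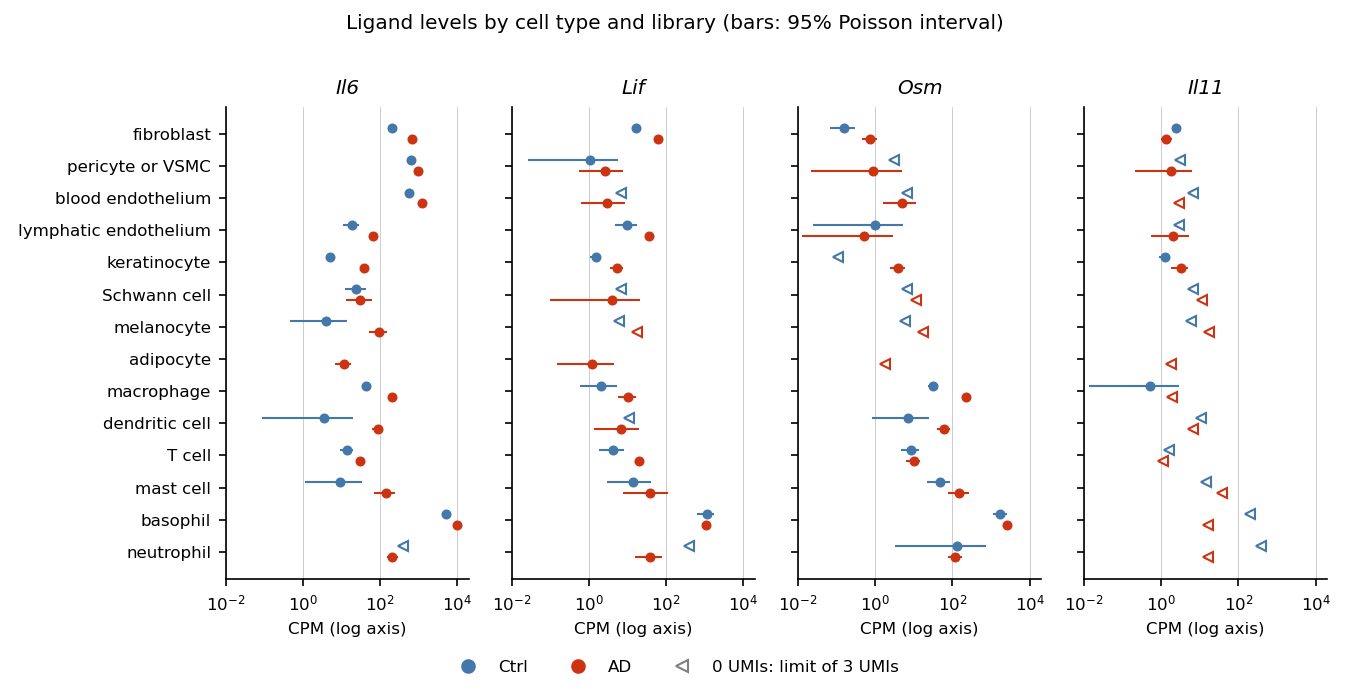
Level of each IL-6 family ligand (CPM, log axis) by marker-gated cell type in the Ctrl and AD libraries, with 95% Poisson intervals and open triangles at the limit of 3 UMIs where none was found. In AD, Il6 was highest in basophils, blood vessel cells and fibroblasts, Lif in basophils and fibroblasts, and Osm in basophils and macrophages.

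Cells of blood vessels held Il6 at higher levels than fibroblasts in both libraries. In pericytes and vascular smooth muscle cells Il6 stood at 626 CPM in Ctrl and 959 in AD (log2 ratio 0.62, 0.47 to 0.76), and in blood endothelial cells at 575 and 1251 CPM (1.12, 0.93 to 1.32), with a UMI in 46.5% of 71 Ctrl and 80.9% of 94 AD cells. In AD the measured order was blood endothelial cells, pericytes and then fibroblasts, with intervals that did not overlap. In Ctrl the intervals of pericytes (577 to 678) and blood endothelial cells (508 to 649) overlapped, and fibroblasts lay below both. In AD pericytes the fibroblast genes Col1a1, Col1a2, Col3a1 and Dcn stood at a median of 28.6% of their fibroblast level (5.71% to 69.8%). Whether this was carried fibroblast RNA was not tested. If it was, fibroblast RNA at that median would bring 194 of the 959 CPM of Il6 in AD pericytes. At the highest of the 4 genes it would bring 473 CPM, which would put AD pericytes below fibroblasts. The same median would bring 17.1 CPM of Lif, more than the 2.65 CPM found in AD pericytes. It would also bring 31.6 CPM of Il11ra1, more than the 25.6 CPM found there.

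Macrophages had 42.1 CPM of Il6 in Ctrl and 209 in AD (log2 ratio 2.31, 1.96 to 2.68), with a UMI in 14.3% and 29.0% of cells. In AD their interval (187 to 232) overlapped that of the 50 neutrophils (207 CPM, 146 to 284), whose 38 UMIs came from 4 cells. Keratinocytes went from 5.09 to 37.7 CPM, but the tenth of AD keratinocytes with most Il6 held 85.7% of its UMIs, and the thinned shares, 0.65% in Ctrl and 4.19% in AD (2.36 to 6.82), lay at or within the interval of the T cell background (AD, 1.92 to 6.05). A low Il6 share of keratinocytes can therefore not be told from background. Lymphatic endothelial cells were at 18.5 CPM in Ctrl and 66.1 in AD (log2 ratio 1.84, 1.14 to 2.62), and 41.9 CPM in AD once the 5% of cells with the highest doublet scores were left out. With types taken from clusters the AD and Ctrl values of lymphatic endothelial cells were 118 and 29.5 CPM. T cells, at 14.0 and 29.7 CPM (1.08, 0.43 to 1.77), gave 15.1 CPM in AD without the top doublet scores and 91.5 CPM when taken from clusters.

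Basophils held the highest level of Il6 in both libraries. Every AD basophil by the gate (34 of 34) had Il6 UMIs, between 1 and 185 each with a median of 52.5, and together they gave 1757 UMIs and 9543 CPM (9102 to 10000). All 5 Ctrl basophils also had Il6, with 76 UMIs and 4947 CPM (3898 to 6192). Col1a1, Col1a2, Col3a1 and Dcn in AD basophils stood at a median of 0.18% of their fibroblast level, so little fibroblast RNA was measured in these droplets. Being few, AD basophils held 5.0% of the library's Il6 UMIs, whereas fibroblasts held 79.5% in Ctrl and 56.4% in AD. Cells left without a type held 11.2% of Il6 UMIs in Ctrl and 29.5% in AD, where their level was 679 CPM, and with types from clusters fibroblasts held 80.9% and 78.9%.

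Lif, which acts through LIFR and gp130, was also mainly a fibroblast transcript outside basophils. Fibroblasts went from 858 UMIs and 16.7 CPM (15.6 to 17.8) in Ctrl to 1762 UMIs and 59.8 CPM (57.0 to 62.6) in AD, 3.58-fold higher (log2 ratio 1.84, 1.72 to 1.96). The share of fibroblasts with a Lif UMI was 11.4% in Ctrl and 15.1% in AD (1.63% and 4.40% when thinned), and cells with any held 1.40 UMIs in Ctrl and 3.52 in AD. Lif was thus in more AD fibroblasts, at full and at equal depth, and more abundant in those that had it. T cells had Lif in 1.11% of Ctrl and 7.71% of AD cells (0.19% and 1.10% when thinned).

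In the typed classes other than basophils the measured Lif level was below that of fibroblasts in the same library. T cells stood at 4.16 CPM in Ctrl and 20.2 in AD (log2 ratio 2.28, 1.20 to 3.56). AD neutrophils were at 38.1 CPM (7 UMIs), and mast cells at 14.1 CPM in Ctrl and 37.8 in AD (3 UMIs each). Counts this low cannot place mast cells or neutrophils below fibroblasts. Lymphatic endothelial cells stood at 9.73 CPM in Ctrl and 36.6 in AD, where 33 of 72 UMIs were in 1 cell, and at 20.4 CPM in AD without the 5% of highest doublet scores. Pericytes had 1 and 3 Lif UMIs and blood endothelial cells 0 and 3, so the vessel cells rich in Il6 had next to no Lif. AD basophils were at 1054 CPM (194 UMIs in 15 of 34 cells, up to 55 in a cell) and the 5 Ctrl basophils at 1107 CPM (17 UMIs in 3 cells). Fibroblasts held 79.8% of all Lif UMIs in Ctrl and 63.4% in AD, and basophils 1.6% and 7.0%.

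Osm, the leukocyte ligand whose main mouse receptor uses OSMR, was at 188 UMIs over all kept Ctrl cells and 1578 over all kept AD cells (log2 ratio 3.84). Macrophages went from 60 UMIs and 31.6 CPM (24.1 to 40.6) to 374 UMIs and 232 CPM (209 to 257), a log2 ratio of 2.88 (2.48 to 3.30). An Osm UMI was found in 8.52% of Ctrl and 44.3% of AD macrophages, at median depths of 4554 and 8100.5 UMIs, and in 2.81% and 11.2% when thinned. Fibroblasts, the background for Osm, had a UMI in 0.149% and 0.666% of cells, so both macrophage values lay above it. Taken from clusters, which hold 882 Ctrl macrophages, the Ctrl level was 16.5 CPM. In macrophages 7 of the 10 handling genes were lower in AD by at least 2-fold and 0 higher (log2 ratios of the 10 from -3.14 to 0.05), against 9.83% lower and 6.66% higher over all genes.

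All 34 AD basophils also had Osm, with 466 UMIs, a median of 9 and up to 68 in a cell, and 2531 CPM (2306 to 2772). The 5 Ctrl basophils gave 27 UMIs and 1758 CPM (1158 to 2557), an interval that overlaps the AD one. Mast cells stood at 47.0 CPM in Ctrl and 151 in AD (log2 ratio 1.69, 0.35 to 3.06), dendritic cells had 2 and 27 UMIs, and AD neutrophils had Osm in 12 of 50 cells (120 CPM). T cells differed little, at 8.31 and 9.90 CPM (0.25, -0.70 to 1.25). Keratinocytes had none in Ctrl and 21 UMIs in AD, 17 of them in 1 cell. AD basophils by the gate held 29.5% of the library's Osm UMIs, macrophages 23.7% and untyped cells 38.1%, and with types from clusters basophils held 58.7% and macrophages 31.0%.

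Clustering put more cells with the basophils, 13 in Ctrl and 65 in AD. In AD, 62 of the 65 cells had Il6 (6489 CPM), 65 had Osm (2262 CPM) and 30 had Lif (842 CPM), and 29 cells had all 3 ligands. Of the 34 gated AD basophils, 15 had all 3 and 34 had both Il6 and Osm. Receptor RNA was close to nil in these 34 cells, with 1 UMI of Il6ra, 1 of Il6st, 2 of Il11ra1 and 0 of Lifr and Osmr, where a count of 0 allows up to 16.3 CPM. Il11 was at 0 as well.

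Il11, a ligand best known from mesenchymal cells, had the fewest UMIs of the family genes. Fibroblasts had 121 UMIs (2.35 CPM) in Ctrl and 40 (1.36 CPM) in AD, a log2 ratio of -0.80 (-1.35 to -0.27), with a UMI in 2.13% and 1.12% of cells. Keratinocytes had 35 and 17 UMIs, 1.24 and 3.15 CPM (1.35, 0.42 to 2.23). All kept cells together held 178 and 85 UMIs, so Il11 levels here rest on few molecules and lay below the 10 CPM used for the counts of genes.

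Il6 and Lif were found together in AD fibroblasts more often than separate draws at their shares would give. Of 3301 AD fibroblasts, 390 had both, 1548 had only Il6, 110 had only Lif and 1253 had neither, against 294 with both if the genes were spread independently. A Lif UMI was present in 20.1% (18.4 to 22.0) of AD fibroblasts with Il6 and in 8.07% (6.68 to 9.65) of those without, a ratio of 2.49 (2.04 to 3.05). In the other direction, Il6 was found in 78.0% of AD fibroblasts with Lif and in 55.3% of those without. In Ctrl 302 fibroblasts had both, 1772 only Il6, 309 only Lif and 2981 neither, and Lif was in 14.6% (13.1 to 16.2) of cells with Il6 and 9.39% (8.42 to 10.4) of those without, a ratio of 1.55.

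Cells with both ligands were the deeper ones, at a median of 9849.5 UMIs in AD against 6974 in cells with neither, and 11072.5 against 7966 in Ctrl. Thinned to 1000 UMIs, the AD ratio was 2.27 (1.65 to 3.11), from 7.40% against 3.27%, and the Ctrl ratio was 1.27 (0.71 to 2.28). Within 5 equal classes of depth the AD ratio was 3.19 in the shallowest and 1.82 in the deepest, with a pooled value of 2.15. The Ctrl ratios within such classes lay between 1.16 and 1.78, pooled 1.36. Asking for at least 2 UMIs gave 2.79 in AD and 1.45 in Ctrl. The AD ratio was higher than the Ctrl ratio in each of these settings, without a test of that difference, and at 1000 UMIs the Ctrl interval included 1.

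**Figure D2:**
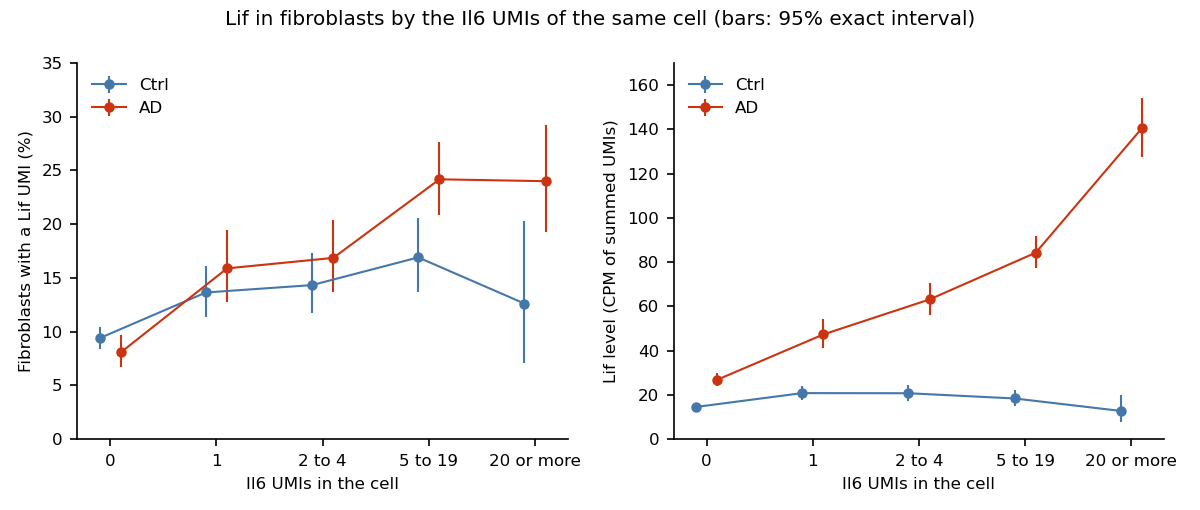
Lif level (CPM) and share of cells with a Lif UMI in fibroblasts binned by their Il6 UMIs (0, 1, 2 to 4, 5 to 19, at least 20), for Ctrl and AD. In AD the Lif level went from 26.8 CPM in cells without Il6 to 141 CPM in cells with at least 20 Il6 UMIs, and in Ctrl it stayed between 12.7 and 20.8 CPM.

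Across AD fibroblasts binned by Il6 UMIs, Lif stood at 26.8 CPM in the 1363 cells with none, 47.3 in 491 cells with 1, 63.1 in 510 cells with 2 to 4, 84.3 in 637 cells with 5 to 19, and 141 in 300 cells with at least 20. The share with a Lif UMI reached 24.2% and 24.0% in the last 2 bins. In Ctrl the same bins gave 14.5, 20.8, 20.7, 18.4 and 12.7 CPM, with no such order. The 300 AD cells with at least 20 Il6 UMIs, 9.09% of AD fibroblasts, held 58.9% of fibroblast Il6 and 24.9% of fibroblast Lif UMIs. Across the 22 points given by 11 cell types in 2 libraries, Il6 and Lif were weakly related (Pearson r = 0.21 of log2 CPM, basophils not among the points).

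Fibroblast subsets were named by at least 2 of 4 markers each. In Dpp4 cells (2813 in Ctrl and 685 in AD), a progenitor-like population of the deep dermis and fascia, Il6 was at 309 CPM in Ctrl and 802 in AD (log2 ratio 1.38). The Fmo2 subset (112 and 718 cells) gave 333 and 837 CPM (1.33), and the Grem1 subset (188 and 450 cells), marked by the adipocyte regulator Pparg among others, gave 175 and 436 CPM (1.32). Prdm1 cells (335 and 185), gated by markers of peri-follicular and papillary dermis, had less Il6, 41.5 and 220 CPM (2.41). Il6 was lowest in the Lrrc15 and Wif1 subsets of Ctrl, at 11.5 and 10.7 CPM in 343 and 295 cells, and AD had 9 cells of each. Fibroblasts of no subset (1278 and 1245) went from 102 to 725 CPM (2.83).

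Lif had another order among the subsets. In AD it was highest in Grem1 cells, at 92.8 CPM against 14.0 in Ctrl (log2 ratio 2.73), then in Fmo2 cells at 57.1 (16.7 in Ctrl, 1.77), Dpp4 cells at 42.3 (20.7 in Ctrl, 1.03) and Prdm1 cells at 23.1 (17.03 in Ctrl, 0.44, interval -0.17 to 1.06). The Grem1 subset thus had the highest Lif level and, of these 4, less Il6 than the Dpp4 and Fmo2 subsets in AD. By share of AD cells with a Lif UMI, Grem1 (15.8%) was not above Fmo2 (16.4%), with Dpp4 at 14.5% and Prdm1 at 11.4%. Thinned, these shares were 5.57%, 6.00%, 2.63% and 2.70%. Fibroblasts of no subset went from 15.1 to 64.0 CPM of Lif (2.08).

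**Figure D3:**
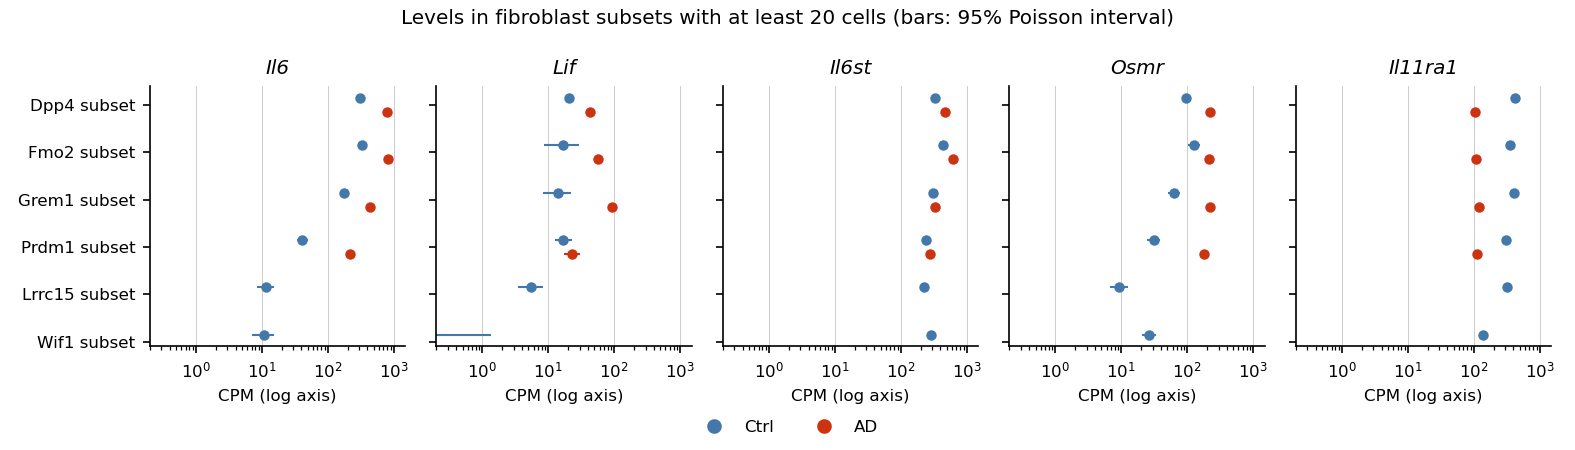
Levels of Il6, Lif, Il6st, Osmr and Il11ra1 (CPM, log axis) in the fibroblast subsets with at least 20 cells, in Ctrl and AD, with 95% Poisson intervals. Il6 was highest in the Dpp4 and Fmo2 subsets, and Lif in the AD Grem1 subset at 92.8 CPM.

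The receptor chains differed in direction in fibroblasts, with Osmr and Lifr higher and Il11ra1 lower in AD. Osmr, the OSM and IL-31 receptor chain, was at 71.4 CPM in Ctrl and 216 in AD, 3.02-fold higher, and was found in 39.4% and 72.9% of fibroblasts (7.12% and 19.6% when thinned), against 0.74% and 4.13% of T cells (0.19% and 0.83% when thinned). Lifr, the LIF receptor chain, went from 45.8 to 104 CPM (log2 ratio 1.18, 1.10 to 1.26) and from 27.8% to 44.3% of cells (3.97% and 9.26% when thinned). Il6st, the shared gp130 chain, was at 302 and 440 CPM (0.54, 0.51 to 0.57) and Il6ra, the IL-6 binding chain, at 108 and 149 CPM (0.46, 0.40 to 0.52), both under 2-fold. Il11ra1, the IL-11 binding chain, had 389 CPM in Ctrl and 111 in AD fibroblasts, 3.51-fold lower, with a UMI in 84.4% and 49.4% of cells (29.3% and 9.20% when thinned). Reads of Il11ra1 can be shared with its near-identical copies Il11ra2 and Gm13305, which had 1 and 0, and 2 and 2 fibroblast UMIs in Ctrl and AD, and how the counting treated shared reads is not stated, so its level is uncertain.

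The directions held in each of the 4 fibroblast subsets with over 100 cells in both libraries. Osmr log2 ratios were 1.19 in Dpp4, 0.74 in Fmo2, 1.80 in Grem1 and 2.53 in Prdm1 cells, Lifr ratios were 1.06, 0.68, 1.62 and 0.75, and Il11ra1 ratios were -2.03, -1.72, -1.79 and -1.499. Cells with both Il6st and Osmr made up 35.1% of Ctrl and 65.7% of AD fibroblasts, with Il6st and Lifr 24.6% and 40.5%, with Il6st and Il6ra 43.9% and 57.3%, and with Il6st and Il11ra1 73.3% and 44.8%. Thinned to 1000 UMIs, the pair with Osmr was found in 1.89% and 6.47%, that with Lifr in 1.07% and 3.34%, that with Il6ra in 2.87% and 4.86%, and that with Il11ra1 in 7.23% and 3.19%. Fibroblasts with the RNA of both chains for OSM or LIF were more frequent in AD and those for IL-11 less frequent.

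Of the 7 family genes with at least 10 CPM in fibroblasts of either library, 4 were at least 2-fold higher in AD (Il6, Lif, Lifr and Osmr) and 1 was at least 2-fold lower (Il11ra1), on a scale of CPM with 1 added. Over all 9127 such genes 6.62% were higher and 12.2% lower by that fold. The median log2 ratio was 1.16 for the 7 family genes and -0.08 for all 9127. Osm and Il11 lay under 10 CPM.

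**Figure D4:**
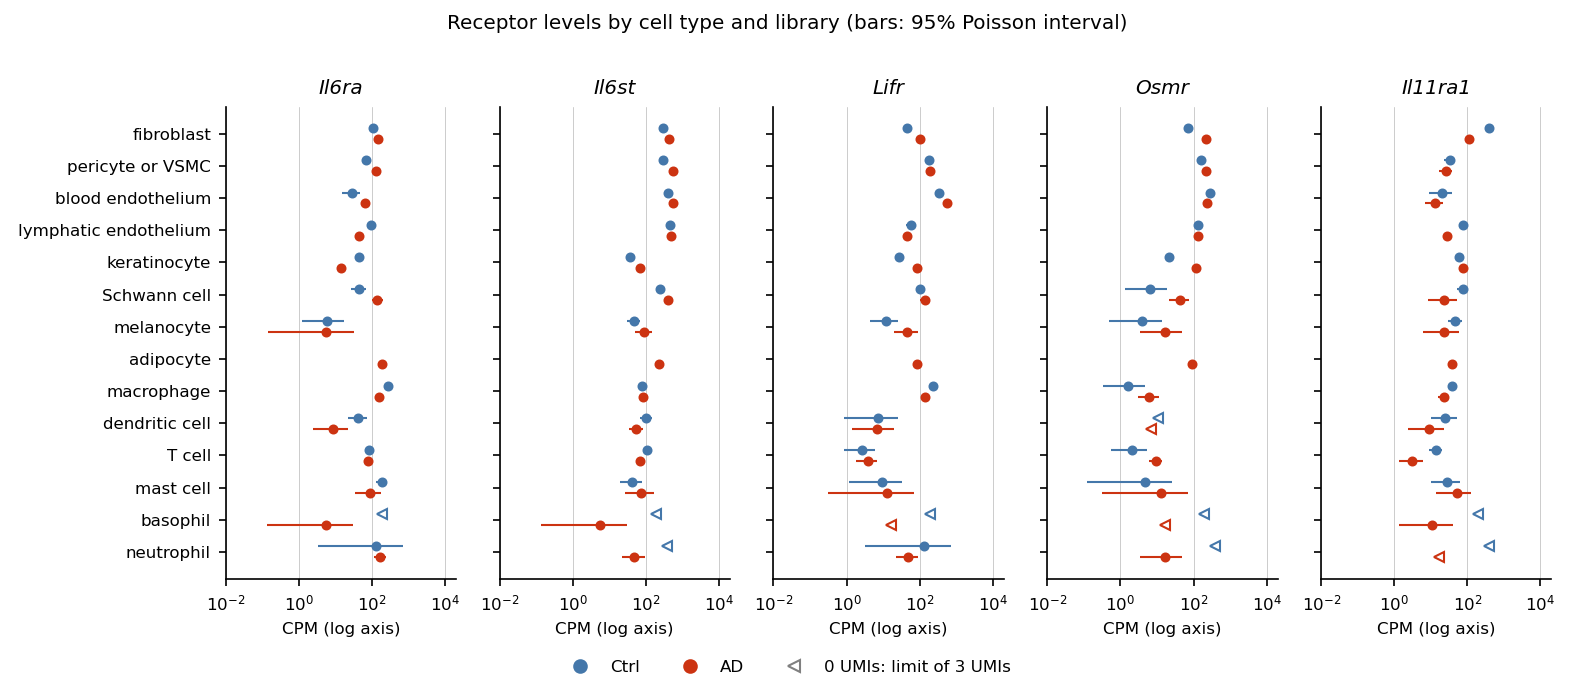
Level of each receptor chain (CPM, log axis) by cell type in Ctrl and AD, with 95% Poisson intervals and open triangles at the limit of 3 UMIs where none was found. In fibroblasts Osmr and Lifr were higher and Il11ra1 lower in AD, and macrophages had under 10 CPM of Osmr.

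Keratinocytes gave a similar picture for the OSM and LIF chains. Osmr went from 21.7 to 119 CPM (log2 ratio 2.46, 2.30 to 2.62) and from 23.2% to 60.3% of cells (2.69% and 15.6% when thinned), and Lifr from 27.0 to 86.1 CPM (1.67, 1.504 to 1.84). T cells, the background, had 4 and 25 UMIs of Osmr, and 5 and 10 of Lifr. Il6st was at 37.6 and 71.3 CPM (0.92). Basal cells made up 1020 of the 1881 Ctrl and 321 of the 375 AD keratinocytes. In basal cells alone Osmr was at 28.3 and 132 CPM (2.22, 2.04 to 2.40) and Lifr at 37.7 and 94.8 CPM (1.33, 1.15 to 1.52). Il6st was at 45.3 and 78.3 CPM there (0.79). Il6ra was lower, at 44.3 and 14.3 CPM (-1.63, -1.98 to -1.30), but Ctrl suprabasal keratinocytes held 96.0 CPM and basal ones 19.8, and the AD library had 20 suprabasal cells with 2 UMIs. Among basal keratinocytes alone Il6ra was at 19.8 and 14.6 CPM (-0.44, -0.84 to -0.06), under 2-fold. Il11ra1 stood at 57.1 and 74.8 CPM (0.39, 0.23 to 0.55) and, in basal cells, at 83.8 and 83.1 (-0.01). Of 6 family genes at 10 CPM or more in keratinocytes, 3 were higher by 2-fold (Il6, Lifr and Osmr) and 1 lower (Il6ra), against 6.37% and 11.2% of all genes. Their median was 1.27 and that of all genes -0.14. Il6 reached 10 CPM in AD keratinocytes only. The Il6 share of keratinocytes could not be told from the T cell background. In keratinocytes 2 of the 10 handling genes were higher by 2-fold, Fos (1.57) and Fosb (1.51), and 0 lower, beside the same shares of all genes. Their summed level was 12384 CPM in Ctrl and 19579 in AD. The part of handling in the keratinocyte differences was not tested.

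Macrophages, the main Osm class after basophils, had little Osmr (3 and 10 UMIs). Il6ra was at 281 CPM in Ctrl and 153 in AD (log2 ratio -0.88, -1.10 to -0.66) and Lifr at 237 and 140 CPM (-0.76, -1.0002 to -0.53), with Il6st at 80.0 and 83.9 CPM (0.07). When types came from clusters, the Ctrl Lifr level was 131 CPM and the Ctrl Il11ra1 level 71.6 in place of 36.8 CPM. In macrophages 2 of 6 family genes were higher by 2-fold (Il6 and Osm) and 0 lower, against 6.66% and 9.83% of all genes, with medians of -0.31 and -0.04.

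Blood endothelial cells held the most Lifr in both libraries among classes of over 50 cells. Lifr was at 344 CPM in Ctrl and 563 in AD (log2 ratio 0.71) and Osmr at 281 and 238 (-0.24, -0.56 to 0.08), an interval that includes no difference. In AD the Osmr intervals of blood endothelial cells, pericytes (216 CPM) and fibroblasts (216 CPM) overlapped, while in Ctrl fibroblasts lay below both. Pericytes held Il6st at 293 and 547 CPM (0.90) and Il6ra at 68.2 and 131 CPM (0.95). If the 4 fibroblast genes in AD pericytes were carried, fibroblast RNA at their median would bring 126 CPM of that Il6st (up to 307). At 307 CPM, Il6st in AD pericytes would lie below Ctrl. Such RNA would bring 42.5 CPM of that Il6ra (up to 104) and 61.7 CPM of the Osmr in AD pericytes (up to 151). In Ctrl pericytes it would bring 5.73 CPM of Il6st, 2.05 CPM of Il6ra and 1.35 CPM of Osmr. Il11ra1 in Ctrl pericytes was 33.0 CPM by the gate and 66.0 by clusters. None of 6 family genes was past 2-fold in pericytes (0 higher and 0 lower), against 8.13% higher and 10.7% lower over all genes, with medians of 0.53 and -0.05.

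Lymphatic endothelial cells were rich in Il6st, at 471 and 503 CPM (log2 ratio 0.09), and had Osmr at 131 and 136 CPM (0.05). Il6ra, at 97.3 and 45.3 CPM (-1.10), and Il11ra1, at 75.9 and 28.5 CPM (-1.41), were the 2 of 7 family genes lower by 2-fold, and Il6 and Lif the 2 higher, against 9.48% and 5.08% of all genes. The medians were 0.05 and -0.07. Lif reached 10 CPM in AD lymphatic endothelial cells only (9.73 CPM in Ctrl). T cells had Il6ra at 83.1 and 79.6 CPM and Il6st at 106 and 70.8 CPM (-0.58), the latter 108 CPM in AD by clusters, and Il11ra1 at 13.5 and 3.05 CPM (-2.15), with 71.1 CPM in Ctrl by clusters. Carried fibroblast RNA would give 6.18 and 1.31 CPM of the T cell Il11ra1. Of 5 family genes at 10 CPM or more in T cells, 2 were higher by 2-fold (Il6 and Lif) and 1 lower (Il11ra1), against 3.27% and 9.06% of all genes, with medians of -0.06 and -0.20. Lif reached 10 CPM in AD T cells only, and Il11ra1 in Ctrl T cells only. Without the top doublet scores AD T cells had 15.1 CPM of Il6 in place of 29.7.

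**Figure D5:**
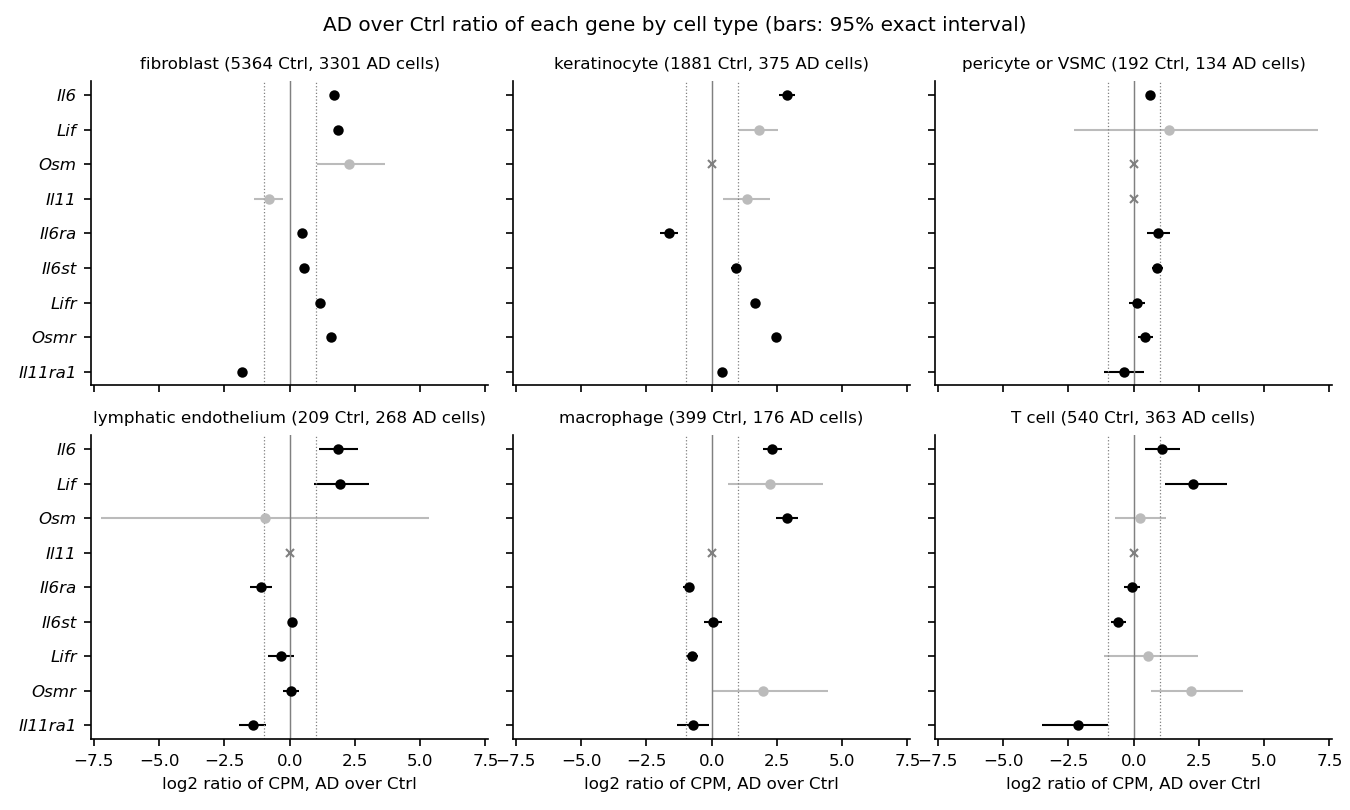
Log2 ratio of AD over Ctrl for each family gene in 6 cell types, with 95% exact intervals, a line at 0 and dotted lines at 2-fold. Grey points lay under 10 CPM in both libraries, and a cross marks a gene with no UMI in at least 1 library and so no ratio. In fibroblasts Il6 (1.72) and Lif (1.84) lay above 0 and Il11ra1 below, and keratinocytes had the highest Osmr ratio shown, 2.46.

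Of a further 23 genes of the pathway, 13 had at least 10 CPM in fibroblasts. Of these, 6 were at least 2-fold higher in AD and 0 lower, against 6.62% and 12.2% of all genes, with a median of 0.98 against -0.08. Socs3, the STAT3-induced inhibitor, went from 513 to 2433 CPM (log2 ratio 2.24), Stat3 itself from 244 to 522 CPM, and Il31ra, the partner of Osmr, from 27.5 to 93.0 CPM. The transcription factor gene Cebpd (750 and 2646 CPM), the kinase gene Pim1 (411 and 1423) and Bcl3 (51.1 and 126), a regulator of NF-kappaB, completed the 6. Junb (0.97) and Jak2 (0.99) were just under the fold. Keratinocytes had 6 of 14 higher, with Socs3 at 102 and 698 CPM, and 1 lower, Cntfr at 54.8 and 11.1, against 6.37% and 11.2% of all genes (medians 0.81 and -0.14). Among those 6, Il31ra and Bcl3 reached 10 CPM in AD only. Macrophages had 2 of 14 higher (Clcf1 and Socs3) and 1 lower (Ebi3), against 6.66% and 9.83% (medians 0.15 and -0.04). Clcf1 reached 10 CPM in AD macrophages only (8.94 CPM in Ctrl). Lymphatic endothelial cells had 3 of 12 higher (Stat3, Socs3 and Bcl3) and 0 lower, against 5.08% and 9.48% (medians 0.59 and -0.07), and pericytes 2 of 11 (Socs3 and Pim1) and 0 lower, against 8.13% and 10.7% (medians 0.38 and -0.05). T cells had 2 of 15 higher (Socs3 and Cebpd) and 2 lower (Clcf1 and Il27ra), against 3.27% and 9.06%, and their median of -0.37 lay below the -0.20 of all genes. Socs3 was the gene of this list higher by 2-fold in all 6 classes.

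Classes with fewer cells added to the order of the receptors. Schwann cells, the glia of skin nerves, stood at 245 CPM of Il6st over 132 Ctrl cells and at 397 over 64 AD cells (log2 ratio 0.70), and at 76.5 and 23.1 CPM of Il11ra1. In AD Schwann cells Col1a1, Col1a2, Col3a1 and Dcn stood at a median of 15.3% of their fibroblast level (4.38% to 28.5%). Carried fibroblast RNA at that median would bring 103 CPM of Il6, more than the 30.8 CPM found in AD Schwann cells. Mast cells had Il6ra at 188 CPM (40 UMIs in 112 Ctrl cells) and 88.2 CPM (7 UMIs in 31 AD cells), and AD neutrophils at 169 CPM (31 UMIs). Dendritic cells had no Osmr UMI in either library and 2 and 3 UMIs of Lifr. Il11ra1 was highest in fibroblasts in both libraries, and in AD keratinocytes came next at 74.8 CPM (67.7 to 82.5), below the fibroblast interval (107 to 115).

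By pattern over the same 22 points, the genes most like Il6 were Adamts4 (r = 0.86), Cxcl1 (0.86) and Fabp4 (0.85), those most like Lif were Hsd11b1 (0.84), Pamr1 (0.79) and Ifi205 (0.74), and those most like Osm were Lilrb4b (0.93), Il10ra (0.93) and Tnf (0.92), among 14152 genes. Points of the same library share its depth and its free RNA, and these values are descriptions.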

How the data were processed

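Single cells of mouse dorsal skin were measured by droplet RNA sequencing (10x Genomics 3′ v3.1), 1 library per condition, grouped by the labels. The deposited matrices hold raw UMI counts per gene and barcode made by the authors with Cell Ranger on mm10: the file header names version 5.0.0, the submitters' processing notes 3.1.0 with Seurat 5.0. Intronic counting was not given in the sources used here. Totals were 125184653 (Ctrl) and 76106062 (AD) UMIs.

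The cell limits of the study's methods, not yet applied in the matrices, were applied here. Types came from 15 lists of 6 markers and, as a check, from Leiden clusters (2000 variable genes, 30 principal components, 20 neighbours, resolution 1). UMIs were summed per class and library, with CPM over the class total. No test between conditions was made. Cells were thinned to 1000 UMIs for shares, a count of 0 was given the limit of 3 counts, and "past 2-fold" refers to CPM with 1 added, over genes that reached 10 CPM in Ctrl or AD. A gene could thus enter these counts through the library where it was higher, for family genes and all genes alike. Doublets were kept. Scrublet marked 441 Ctrl cells (3.87%) but 1 AD cell (0.0122%) and so did not work there, and leaving out the top 5% of its scores was an alternative chosen after seeing the data. Alternatives were other marker minimums, Pdgfra alone, clusters, cell limits, depth, scaling and the CPM filter. Scripts were tested on simulated data.

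The family genes, the pathway list and the markers were chosen with earlier results of these data known. Genes named are the 9 family genes, pathway genes past 2-fold with the 2 just under it, and, for Il6, Lif and Osm, the 3 genes of highest Pearson r of log2(CPM + 1) over types with at least 20 cells in both libraries. Carried fibroblast RNA was read from 4 genes that gate no type. This takes all their RNA in other classes as carried, which was not tested. Gene positions are from GENCODE M21 on GRCm38, and promoters from RefSeq on GRCm38.p6, which had 8 of the 9 genes. Python 3.11.15, numpy 2.4.6, scipy 1.17.1, pandas 2.3.3, scanpy 1.11.5, leidenalg 0.10.2 and matplotlib 3.10.9 were used.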

Additional observations from a re-analysis of the deposited data

Results flagged for a closer look

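For 5 family genes the log2 ratio of AD over Ctrl had opposite signs in 2 cell types, with neither counting interval reaching 0. The differences are between 1 library per condition and were not tested. Il11 was at 1.35 in keratinocytes and -0.80 in fibroblasts, a difference of 2.15 that rests on 17 and 40 AD UMIs. In basal keratinocytes alone the Il11 ratio was 1.12 (0.10 to 2.10). The Il11 interval included 0 in the Dpp4, Fmo2, Prdm1 and Grem1 subsets, and was -2.50 to -0.17 in fibroblasts of no subset. Il6ra was at 0.95 in pericytes and vascular smooth muscle cells and -1.63 in keratinocytes, a difference of 2.58, and at -0.44 in basal keratinocytes alone. Fibroblast RNA carried into AD pericytes would give 42.5 (up to 104) of their 131 CPM of Il6ra, against 2.05 of 68.2 CPM in Ctrl. At the same median it would give more Lif and Il11ra1 than was found in AD pericytes. For Lifr, keratinocytes at 1.67 and macrophages at -0.76 differed by 2.44. In basal keratinocytes alone the Lifr ratio was 1.33 (1.15 to 1.52), and the Ctrl macrophage level was 131 CPM by clusters in place of 237. For Il6st, keratinocytes at 0.92 and T cells at -0.58 differed by 1.504, and with types from clusters the T cell ratio was -0.15 with an interval that included 0 (-0.34 to 0.05). Il11ra1 was at 0.39 in keratinocytes and -2.15 in T cells, a difference of 2.54, where the T cells held 26 and 8 UMIs and the Ctrl T cell level was 71.1 CPM by clusters in place of 13.5. In basal keratinocytes alone the Il11ra1 ratio was -0.01 (-0.18 to 0.15), and carried fibroblast RNA would give 45.8% of the Ctrl and 43.0% of the AD T cell level.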

How the results depend on the processing

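The fibroblast Il6 log2 ratio of 1.72 moved by more than its counting interval to 1.80 with at least 2 markers, 1.51 with at least 4, 1.86 by Pdgfra alone, 1.89 by clusters, 1.82 after thinning and 1.84 as the mean of each cell's CPM, and stayed within it in the other 5 settings (1.70 to 1.75). The Lif ratio of 1.84 gave 1.67 with at least 4 markers and 1.68 as the mean of each cell's CPM, and 1.74 to 1.87 otherwise. The cause of these moves was not tested. The co-detection ratio in AD, 2.49, lay between 2.15 and 2.92. The share of genes past 2-fold, 18.9%, was 19.04% from 50 CPM and 12.6% with no filter. In these settings no ratio whose interval excluded 0 changed sign. Among the other ratios by cell type, 212 recomputed values stayed within their interval and 18 left it, 11 of these by clusters. No paired analysis was possible because each condition is 1 library. Leaving out a replicate could not be done for the same reason. With 5 Ctrl basophils and 20 AD suprabasal keratinocytes, values in those cells rest on few cells. Free RNA was not removed, doublets in AD were not identified, and condition and library cannot be told apart.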

Other observations

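The other ligands of the family, taken from the pathway list, were under 10 CPM in fibroblasts of both libraries. Clcf1, a cardiotrophin-like ligand of the CNTF receptor, stood at 53.0 CPM in Ctrl and 25.9 in AD T cells and at 38.5 CPM in AD macrophages. Fibroblasts had Cntf at 0 in both libraries, Il27 at 0 and 1, and Il31 at 1 and 1 UMI. Ebi3, a subunit shared by IL-27 and IL-35, was at 44.7 CPM in Ctrl and 10.6 in AD macrophages. AD adipocytes, a class with 87 cells in AD and 0 in Ctrl, held Il6ra at 186 CPM, Il6st at 225 CPM and Il6 at 11.4 CPM, where fibroblast RNA carried into the droplets would give 7.26 CPM.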
